A study of Mus musculus with 3 samples.

Results

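Cluster 6 of the Ctrl library is a group of nuclei in mouse epididymal fat with high levels of many genes of Sertoli and Leydig cells, which are somatic cells of the testis. Some of its leading genes reached similar levels in clusters of the other libraries of the series. Cluster 6 was proposed as testis somatic nuclei. Its members were chosen by one column of the deposited Ctrl table, the mean counts of cluster 6, set against the columns of the other 13 clusters. The cluster held 8323399 of the 53980929 UMIs (single transcript molecules) of the library, a share of 15.4%, and 25616 genes had at least 1 UMI in it. The series as a whole has 223241660 UMIs. The tables do not give the number of nuclei, so members are counted by their UMIs.

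The series compared nuclei of epididymal fat from male C57BL/6J mice at 3 stages of diet-induced obesity. Mice were bought at 5 weeks of age, and the age at sampling is not given in the sources used here. Ordinary diet was given in Ctrl. The Mid_Ob and Ob groups received a high-fat diet of 60% fat, and their body weight lay more than 10% and more than 20% above the control mean. Fat of 8 mice was taken for each stage and each stage is 1 library, so nothing here has an error between mice. The Ctrl label names fat only, but the library also held germ cell transcripts in clusters 7, 12, 13 and 14, which were named germ cell-like after their values had been seen. Mid_Ob has 57665213 UMIs in 11 clusters and Ob has 111595518 UMIs in 21 clusters.

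In the testis, Sertoli cells line the seminiferous tubule, hold the germ cells, take up their residual bodies and form the blood-testis barrier with tight junctions. They answer to follicle-stimulating hormone through its receptor. Leydig cells lie between the tubules and answer to luteinizing hormone by making testosterone from cholesterol, a chain that runs from the mitochondrial side-chain cleavage enzyme Cyp11a1 over Hsd3b enzymes and Cyp17a1 to Hsd17b3. Germ cells silence the X chromosome during meiosis, while somatic cells of a male keep their single X active.

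Among the 25 genes with the highest ratio of cluster 6 to the other clusters were 8 of the Sertoli list, and others act in cell shape and signalling. Of those 8, Mro, Nxf3, Gpm6b, Mcf2 and St8sia2 are the proposed markers, which were chosen on these data. Nothing is therefore read from the 8. Levels are CPM, the counts of a gene per 1000000 UMIs of a cluster, and ratios set the CPM of cluster 6 against the CPM of the other 13 clusters summed, with a 95% interval in parentheses that covers counting error only. Since every gene entered the clustering, these ratios describe the cluster and have no test. Mcf2, a guanine nucleotide exchange factor, stood at 183 CPM in cluster 6 and at 1.98 to 24 CPM in the other clusters, a ratio of 48.0 (41.0 to 56.5). Plppr5, a membrane protein of neurons that promotes outgrowth of fine cell processes, had 85.1 CPM and a ratio of 38.8 (31.5 to 48.4). Rgs17, which shortens signals of G proteins, had 60.3 CPM and a ratio of 30.9 (24.7 to 39.2). A higher CPM of one gene than of another is not read as more transcript, since CPM is not divided by gene length.

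The promoters of these 3 genes are shown because they are the first in the order of ratio that have an entry in the RefSeq table of GRCm38.p6 and a role known here. Mro, with a higher ratio than Rgs17, was passed over because the sequence of its chromosome is not printed here. Mcf2 has another window, chrX:60147792-60148091, which is not shown and holds no match. Fshr, the receptor of follicle-stimulating hormone, and Amhr2, the receptor of anti-Müllerian hormone, were added after their values had been seen, because their windows hold a match to a motif searched. Each run has 300 bases, 250 before and 50 after the start of the gene, read 5′ to 3′ on the strand of the gene. Capitals mark matches to 4 motifs searched on both strands. The E-box is CACGTG and reads the same on both strands. The motif of NR5A1 is CAAGGTCA and reads TGACCTTG on the other strand. The GATA motif is AGATAA with the reverse form TTATCT, and the SOX motif is AACAAT with the reverse form ATTGTT. None of the matches printed overlaps a match to another of these motifs.
Mcf2 promoter, chrX:60179040-60179339, minus strand: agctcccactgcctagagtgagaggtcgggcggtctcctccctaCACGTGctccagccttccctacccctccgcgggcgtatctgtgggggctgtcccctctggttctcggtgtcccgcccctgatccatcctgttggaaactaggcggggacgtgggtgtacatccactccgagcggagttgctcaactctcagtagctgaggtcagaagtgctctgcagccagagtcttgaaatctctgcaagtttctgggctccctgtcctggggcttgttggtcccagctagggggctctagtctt
Plppr5 promoter, chr3:117574977-117575276, plus strand: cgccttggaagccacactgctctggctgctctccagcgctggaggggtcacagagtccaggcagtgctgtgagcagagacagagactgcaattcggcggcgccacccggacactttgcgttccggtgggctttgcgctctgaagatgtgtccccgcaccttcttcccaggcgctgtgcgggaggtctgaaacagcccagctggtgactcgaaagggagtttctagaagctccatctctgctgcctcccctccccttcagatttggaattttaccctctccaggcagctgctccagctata
Rgs17 promoter, chr10:5922351-5922650, minus strand: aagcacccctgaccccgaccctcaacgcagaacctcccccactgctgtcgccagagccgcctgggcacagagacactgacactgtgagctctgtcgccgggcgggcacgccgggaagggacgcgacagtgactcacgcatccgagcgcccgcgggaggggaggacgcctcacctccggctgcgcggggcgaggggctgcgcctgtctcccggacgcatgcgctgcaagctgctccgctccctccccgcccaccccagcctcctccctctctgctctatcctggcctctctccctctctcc
Fshr promoter, chr17:89200626-89200925, minus strand: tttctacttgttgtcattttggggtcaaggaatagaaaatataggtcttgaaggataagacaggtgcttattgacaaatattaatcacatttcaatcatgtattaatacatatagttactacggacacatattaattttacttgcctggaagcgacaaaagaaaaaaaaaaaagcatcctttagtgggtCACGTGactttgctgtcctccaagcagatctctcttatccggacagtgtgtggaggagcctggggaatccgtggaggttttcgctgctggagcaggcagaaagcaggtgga
Amhr2 promoter, chr15:102445117-102445416, plus strand: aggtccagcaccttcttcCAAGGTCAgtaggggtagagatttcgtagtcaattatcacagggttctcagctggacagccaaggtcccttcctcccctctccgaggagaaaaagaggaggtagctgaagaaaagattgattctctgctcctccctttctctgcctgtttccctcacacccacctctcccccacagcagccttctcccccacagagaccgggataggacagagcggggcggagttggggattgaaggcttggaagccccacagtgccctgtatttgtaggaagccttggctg
The E-box match of Mcf2 begins at base 45 of its run and that of Fshr at base 190, and the NR5A1 match of Amhr2 begins at base 19, while the runs of Plppr5 and Rgs17 hold no match. Of 32851 promoters in the table, 7.15% held the E-box, 1.56% the NR5A1 motif, 11.2% the GATA motif and 10.7% the SOX motif. Among the 34 promoters of the 27 Sertoli genes that were higher in cluster 6 and had an entry, 3, 1, 1 and 2 held them, and among 11 promoters of 8 such Leydig genes 0, 0, 2 and 0 did. A match is a description of the letters and no evidence that a factor binds, and a promoter with no match says nothing on the factor.

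The 25 leading genes, which had at least 200 counts in cluster 6 and a proper symbol, had ratios from 17.4 to 48.0, and cluster 6 held 76.1% to 89.7% of their Ctrl counts. The last of them was Daam2, which acts on actin in Wnt signalling, at 17.4, and the next gene was the laminin chain gene Lama1 at 17. Against the other clusters without the germ cell-like ones their ratios were 14.8 to 51.0, with a median of 23.9. Cluster 1 was the next highest cluster for 14 of the 25, and cluster 10 for 4. Of the leading genes 8 lie on the X chromosome, among them Mageb16, Tbx22, Nup62cl and Tsx. The plot of the 25 genes over the 14 clusters shows one bright column.

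**Figure D1:**
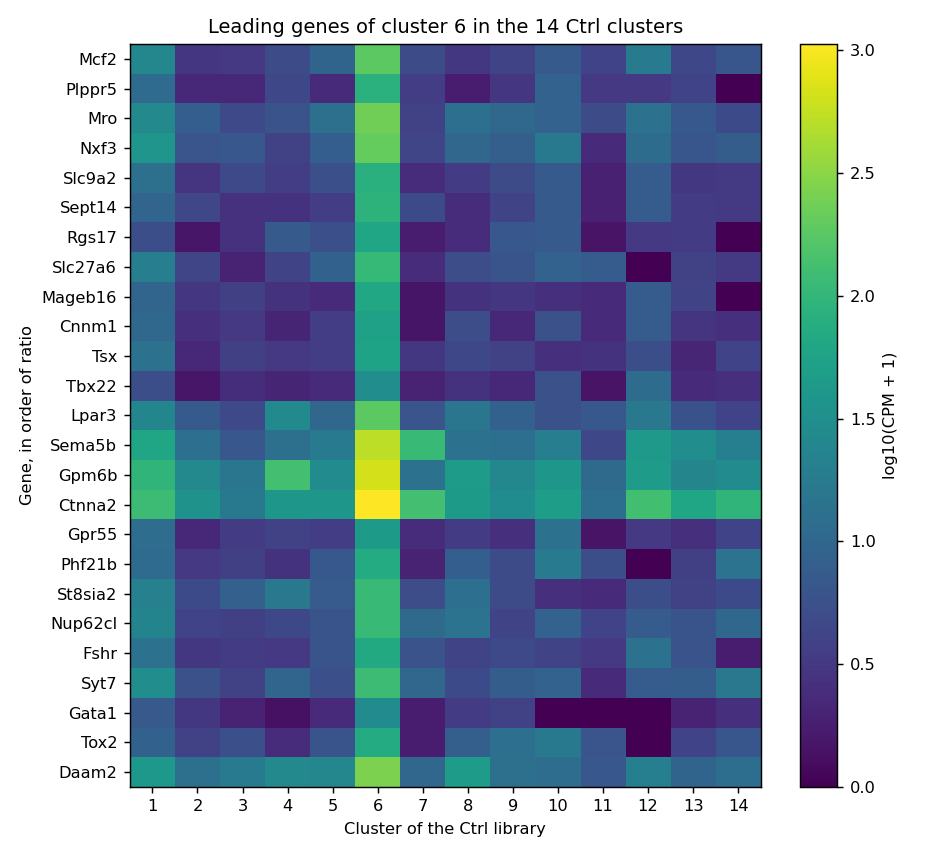
Level of the 25 leading genes (rows, in order of ratio) in the 14 clusters of the Ctrl library (columns), as log10 of CPM plus 1. Cluster 6 is the highest column for each gene, and cluster 1 is the next highest for 14 of them.

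All 5 genes proposed as markers were in this leading set. Mro, a gene of male gonad development on chromosome 18, stood at 233 CPM in cluster 6, at a median of 6.97 CPM in the other clusters and at 25.7 CPM in cluster 1, the next highest. Nxf3, an X-linked member of the family of RNA export factors, had 203 CPM against 36.9 CPM in cluster 1. Gpm6b, a myelin-type membrane protein gene of the X chromosome, had 679 CPM, and cluster 4 followed with 131 CPM. St8sia2, which builds polysialic acid chains, had 112 CPM against 19.7 CPM in cluster 1. Their ratios, with Mcf2, ran from 20.3 to 48.0, and none of the other 13 clusters came within a factor of 5 of cluster 6.

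Of all genes listed, 20598 had at least 50 counts in Ctrl, and these are called measured here. Of these, 1507 (7.32%) were more than 2-fold higher in cluster 6 and 5175 (25.1%) more than 2-fold lower, and the median log2 ratio was -0.27. Of the 1507 genes, 863 (57.3%) were highest in cluster 6 of all 14 clusters, and 155 had a ratio over 10. The higher genes held 13.6% of the UMIs of the cluster. The genes of cluster 6 with the highest CPM, not divided by length, were mostly shared with the other clusters, since 7 of the first 10 lay within 2-fold. Malat1 at 19889 CPM had a ratio of 0.89 and Celf2 at 2871 CPM a ratio of 1.21. Grip1, a scaffold for receptors at the membrane, had a ratio of 14.3 (13.9 to 14.7), the largest among the 10 most abundant, and Mageb18, an X-linked MAGE gene, a ratio of 9.05 (8.82 to 9.28).

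Sertoli genes were high in cluster 6 as a list. Of 63 genes on the list, 58 had at least 50 counts. The list holds the 5 proposed markers, which were chosen on these data, so its count is not independent evidence. Of those, 41 were more than 2-fold higher against the 7.32% of all genes given above, 2 were lower and 15 lay within 2-fold, with a median log2 ratio of 1.84 beside -0.27 over all genes. Their sum was 9468 CPM in cluster 6, from 1097 to 5735 CPM in the other clusters, and 23 of the genes were highest in cluster 6. Members just inside and outside the 2-fold limit were Dhh at 2.10 and Axl at 1.95. Below 50 counts were Hsd17b1 (41 counts), Drd4 (34), Rhox5 (25), Prnd (17) and Amh (8).

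Transcription factors of Sertoli cells were higher for 10 of 12 members. Gata1, an X-linked factor of Sertoli and blood cells, had 27.8 CPM in cluster 6 and at most 6.01 CPM elsewhere, a ratio of 18.1 (13.8 to 24). Dmrt1, which keeps the male fate of gonadal cells and is also made in germ cells, had 146 CPM and a ratio of 15.2 (13.6 to 17), and the next cluster was the germ cell-like cluster 7 at 19.1 CPM. Sox8, a partner of Sox9, had a ratio of 10.2 (7.27 to 14.6) from 99 counts in cluster 6. Gata4, shared by Sertoli and Leydig cells, had 264 CPM against 87.4 CPM in cluster 8. Nr5a1, the regulator of steroid genes that both cell types use, had 39.2 CPM, and cluster 2 was next with 7.85 CPM. The highest levels of Wt1 and Sox9 lay in other clusters. Wt1, which mesothelium also uses, had 441 CPM in cluster 6 and 596 CPM in cluster 3, where the mesothelial list was highest. Sox9, which starts the Sertoli fate, had 24 CPM against 66.2 CPM in cluster 8, where the epididymal and the rete testis lists were highest.

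Of the hormones and receptors, 5 of 6 members measured were higher and 1 was lower. Fshr had 67.9 CPM in cluster 6 and from 0.767 to 13 CPM elsewhere, a ratio of 19.3 (16.1 to 23.1), and its range in the other clusters did not reach the level of cluster 6. Erbb4, a receptor of neuregulins, had 583 CPM, while cluster 8 stood above it with 640 CPM. Amhr2 had 112 CPM, and cluster 1 stood above it with 149 CPM. The inhibin subunit genes Inha and Inhbb had ratios of 3.63 and 3.93, and both were higher in cluster 1 than in cluster 6. Inhba, the gene of the other beta subunit, had 6 counts in cluster 6 and a ratio of 0.36 (0.13 to 0.82). Amh, the hormone of the fetal and early postnatal Sertoli cell, had 1 count in cluster 6 out of 8 in the library.

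Junction genes were higher for 7 of 10 members, and 6 of them were highest in cluster 6. Tjp1, the scaffold ZO-1, had 878 CPM against 208 CPM in the next cluster, and Ocln, the tight junction protein occludin, had 52.4 CPM against 49.8 CPM in cluster 8. Cldn11, the claudin of the blood-testis barrier, had 80.9 CPM against 57.5 CPM in cluster 1. Cdh2, N-cadherin, and Espn, the actin bundler of Sertoli junctions, had ratios of 8.23 and 8.16. Gja1, the gap junction gene, Itga6 and Cldn3 lay between 0.86 and 1.25. In a list of polarity and adhesion genes added after values had been seen, 4 of 18 were higher and 3 lower. Over all genes 7.32% were higher and 25.1% lower. The 4 higher members were Ctnna2, a neural alpha-catenin with 1062 CPM, Cadm1, Scrib and Pard3b.

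Genes for uptake of dead cells, for germ cell support and for secretion were mixed. Tyro3, one of the 3 TAM receptors that recognise dying cells, had a ratio of 16 (12.9 to 20.1), while Axl had 1.95 and Mertk 0.75. Elmo1, an adaptor of engulfment, had 1092 CPM against 1256 CPM in cluster 11, where the macrophage list was highest. Of 7 signals to germ cells, 3 were higher: Gdnf, the growth factor of spermatogonial stem cells, at 5.41 CPM from 45 counts, Kitl, the ligand of the receptor Kit, at 294 CPM, and Dhh, the hedgehog ligand of Sertoli cells, at 12.7 CPM. Dhh was highest in the germ cell-like cluster 14, at 115 CPM. Bmp4 was lower, at a ratio of 0.36. Of 10 secreted or metabolic genes measured 6 were higher, yet none was highest in cluster 6, and all 6 were higher in cluster 1. Among them Clu, the secreted chaperone clusterin, had 116 CPM against 404 CPM in cluster 1, and Defb19, a defensin of Sertoli cells, had 56.8 CPM against 189 CPM. Defb19 and Defb36, and Cst9 and Cst12, belong to families of close copies, so how their reads were split is uncertain.

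**Figure D2:**
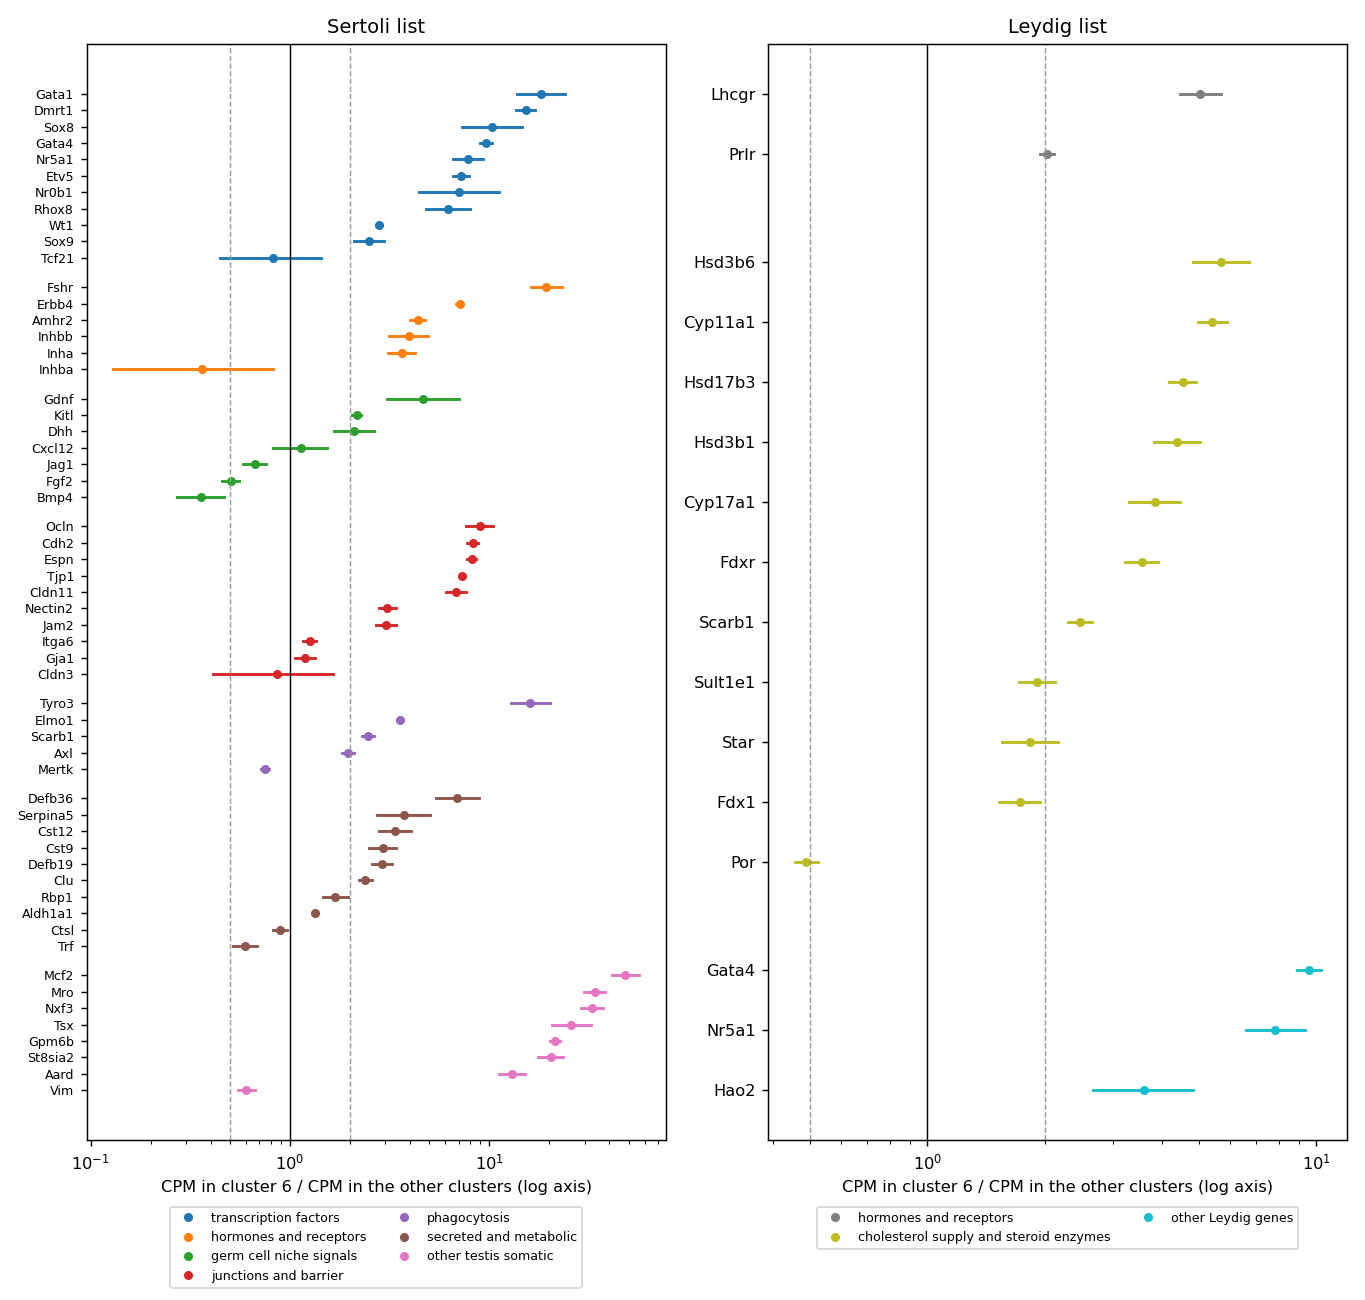
Ratio of CPM in cluster 6 to CPM in the other 13 clusters summed (log axis) for members of the Sertoli list (left) and the Leydig list (right) with at least 50 counts, coloured by role. Points are ratios, lines their 95% counting intervals, dashed lines mark 2-fold, and Gata4, Nr5a1 and Scarb1 stand on both sides. Right of the 2-fold line lie 41 Sertoli members and 12 of the 16 Leydig members.

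Genes by which Sertoli cells handle retinoids, feed germ cells and pass on the FSH signal had shares of higher genes near the 7.32% and shares of lower genes at or below the 25.1% of all genes. These lists were added after values had been seen. None of 14 retinoid genes was higher and 3 were lower, and Aldh1a1, which makes retinoic acid, had a ratio of 1.34. Of 10 genes of glucose and lactate supply, Ldhb, a lactate dehydrogenase subunit, was higher, at a ratio of 4.53, and Hk1 was lower. Of 15 genes of FSH receptor and cAMP signalling, Fshr was higher, while Adcy6 and Adcy8 were lower.

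Cluster 1 and cluster 6 held different parts of the Sertoli list. Over the 41 higher Sertoli genes, the level in cluster 1 relative to cluster 6 fell with gene length, with a Pearson correlation of -0.73 and a Spearman correlation of -0.74 on log scales. This correlation is across genes of 1 library, which are not independent replicates, and the points share both clusters. The 41 genes were chosen as higher in cluster 6, which is the denominator here, so the relative levels depend in part on the choice. The same correlation was not computed over all genes. The 12 genes that were higher in cluster 1 had a median length of 5.27 kb, from 3.29 to 13.1 kb, and the 29 that were higher in cluster 6 one of 51.8 kb, from 4.18 to 1076 kb, so the lengths overlap. Cluster 1 had 1.85% of its UMIs from mitochondrial genes, against 0.285% in cluster 6 and 0.0916% to 1.85% over the 13 other clusters, and 3790 CPM of the spermatid list. Whether these quantities have a part in the pattern was not tested. Mitochondrial transcripts lie outside the nucleus.

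**Figure D3:**
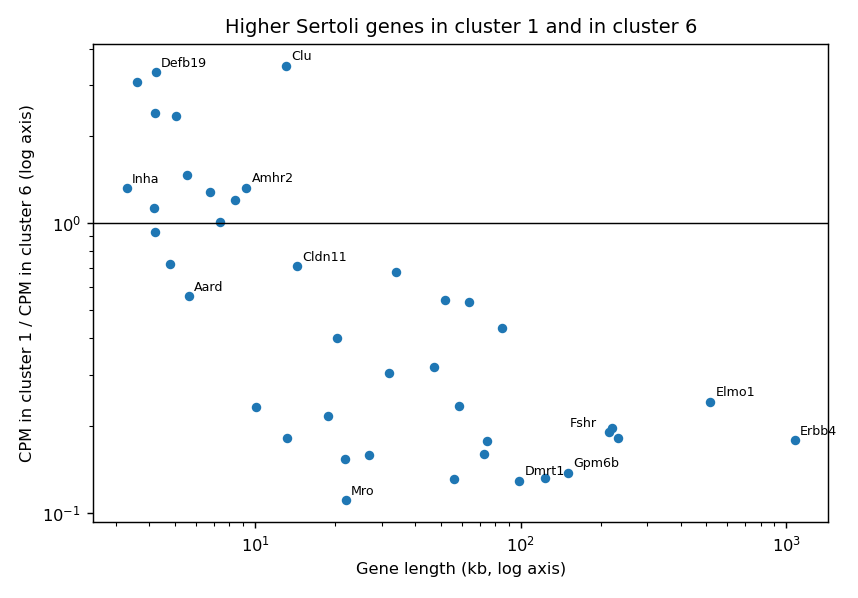
Level of the 41 higher Sertoli genes in cluster 1 over their level in cluster 6 against gene length in kb (both axes log), 1 point for each gene, with the line at an equal level. Genes above the line are at most 13.1 kb long, and Mro, Gpm6b and Dmrt1 lie far below it. The genes were chosen as higher in cluster 6.

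Leydig genes were also high in cluster 6. Of 20 genes on the list 16 had at least 50 counts, of which 12 were more than 2-fold higher, 1 was lower and 3 lay within 2-fold. Over all genes 7.32% were higher and 25.1% lower. The median log2 ratio was 1.89, beside 1.84 for the Sertoli list and -0.27 over all genes. The sum of the list was 1575 CPM in cluster 6 and 1131 CPM in cluster 2, where the adipocyte list was highest. Of the higher genes 3 stand on the Sertoli list too, Gata4, Nr5a1 and Scarb1. Without them 9 of 13 were higher and the median was 1.85. Members just inside and outside the limit were Prlr at 2.03 and Sult1e1 at 1.92.

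Lhcgr, the receptor of luteinizing hormone, had 63.3 CPM in cluster 6, 26.5 CPM in cluster 2 and a median of 7.93 CPM over the other clusters, a ratio of 5.03 (4.46 to 5.67). Cyp11a1 had 126 CPM, with 46.8 CPM in cluster 2 and a ratio of 5.40 (4.96 to 5.89). Hsd17b3, which makes testosterone in the last step, had 143 CPM and a ratio of 4.53 (4.19 to 4.89). Each of these genes was highest in cluster 6 and next highest in cluster 2. Cyp17a1 had 36.0 CPM and a ratio of 3.84 (3.30 to 4.46). Hsd3b1 and Hsd3b6 had ratios of 4.39 and 5.70, and as close copies their reads may be shared. Fdxr, which passes electrons to the mitochondrial enzymes, had a ratio of 3.56, and its partner Fdx1 one of 1.73. Star, which carries cholesterol into the mitochondrion, was within 2-fold at 1.83 (1.55 to 2.16) and was highest in cluster 5. Por, the electron donor of Cyp17a1 and of other enzymes in many tissues, was lower at 0.49. Insl3, a peptide hormone that defines adult Leydig cells, had 13 counts in cluster 6 out of 36 in the library. Klk1b21, Klk1b24 and Klk1b27, members of a family of close copies, had 9, 4 and 4 counts in the library.

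Over the whole lists, cluster 6 held 33.5% of the Ctrl counts of Sertoli genes and 29.9% of those of Leydig genes. Cluster 2 held 24.5% and 35.2% of them. With each cluster weighted equally the shares in cluster 6 were 16.9% and 17.4%. For a closer description 9 Sertoli genes (Mro, Nxf3, Gpm6b, Mcf2, St8sia2, Tsx, Fshr, Gata1 and Dmrt1) and 7 Leydig genes (Lhcgr, Cyp11a1, Cyp17a1, Hsd3b1, Hsd3b6, Hsd17b3 and Hao2) were taken once their values were known. Because these Sertoli genes were taken among those with high ratios, their low level in other clusters follows from the choice and supports nothing. Cluster 6 held 81.4% of the Ctrl counts of the 9 Sertoli genes, and cluster 2 held 4.30%. Of the counts of the 7 Leydig genes cluster 6 held 46.5% and cluster 2 held 32.1%. The level in cluster 2 was 0.289 to 0.509 of that in cluster 6 for each of the 7 Leydig genes, with a median of 0.425. Other members of the Leydig list measured ran from 0.113 (Gata4) to 4.40 (Por). The 7 were taken with values known, so nothing is read from their narrow range. For the 9 Sertoli genes it was 0.0108 to 0.0767, with a median of 0.0314, while other members of the Sertoli list reached 2.46 (Mertk) and 3.38 (Fgf2). Counts of the 7 Leydig genes over those of the 9 Sertoli genes gave 0.270 in cluster 6 and 3.52 in cluster 2. The part of free RNA in these levels was not tested. Counts per nucleus were not used here, so it cannot be told apart whether Leydig and Sertoli genes stand in the same nuclei of cluster 6 or in different ones.

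**Figure D4:**
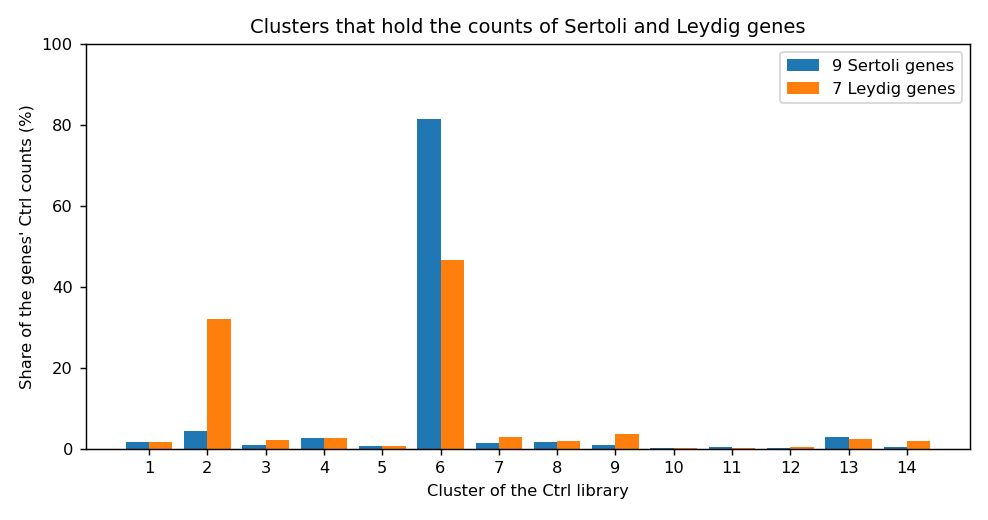
Share of the Ctrl counts of 9 Sertoli genes and of 7 Leydig genes (in %) that lies in each of the 14 clusters. Cluster 6 holds 81.4% of the Sertoli and 46.5% of the Leydig counts, and cluster 2 holds 4.30% and 32.1%. The genes were taken with their values known, and over the whole lists cluster 6 holds 33.5% and 29.9% and cluster 2 holds 24.5% and 35.2%.

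Transcripts of fat cells reached into cluster 6 as well. The 25 leading genes of cluster 2 had in cluster 6 a median of 16.1% of their level in cluster 2. The other clusters ran from 2.58% to 23.9%. Only cluster 1 stood above cluster 6, and cluster 14 followed it with 14.7%. The adipocyte list summed to 2591 CPM in cluster 6, to 10995 CPM in cluster 2 and to 975 to 4503 CPM in the remaining 12 clusters. None of its 12 members was higher and 8 were lower. The macrophage list had 527 CPM in cluster 6 and 7067 CPM in cluster 11, the fibroblast or progenitor list 592 and at most 5452 CPM, the endothelial list 69.2 and at most 735 CPM, the T cell list 77.0 and at most 2417 CPM, and none of their members was higher. Of the mesothelial list 1 of 10 was higher, Wt1, and 7 were lower. The peritubular myoid and smooth muscle list stood at 212 CPM in cluster 6. In the other clusters it ran from 41.3 to 449 CPM, with a median of 225 CPM. None of its 9 members measured was higher, 5 were lower and 4 lay within 2-fold. Acta2 and Myh11, which mark these cells, stood at 1.92 and 2.52 CPM. The epididymal list stood at 133 CPM, from 52.3 to 1714 CPM in the other clusters, and the rete testis list at 326 CPM, with none of their members higher. Since 7.32% of all genes were higher, nothing is read from none or 1 higher member in lists this short. Lower were 8 of 10 macrophage, 6 of 10 fibroblast or progenitor, 5 of 8 endothelial and 3 of 8 T cell genes, beside 25.1% of all genes.

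Genes of early meiosis stood in cluster 6 beside the somatic genes, which the proposed name does not cover. Of 26 genes of meiotic prophase, a list added after values had been seen, 13 were more than 2-fold higher and none was lower. Over all genes 7.32% were higher and 25.1% lower. The median log2 ratio was 0.98, beside -0.27 over all genes. The 26 genes summed to 2553 CPM in cluster 6, 3279 CPM in the germ cell-like cluster 13 and 264 CPM in the cluster where the sum was lowest. Sycp1, a component of the synaptonemal complex, had 583 CPM in cluster 6, 711 CPM in cluster 7 and 79.0 CPM in cluster 2. Of the 26 genes 9 were higher in cluster 6 than in each germ cell-like cluster. Among those were Mei4, which acts in the formation of DNA breaks, at 22.2 CPM against 6.99 CPM, Tex11, an X-linked gene of chromosome synapsis, at 51.4 against 21.9 CPM, Prdm9, which sets the places of recombination, at 36.2 against 19.2 CPM, and Stra8, which starts meiosis, at 3.84 CPM from 32 counts. The share of all genes higher in cluster 6 than in each germ cell-like cluster was not computed, so nothing is read from the 9. In cluster 2 Prdm9 stood at 25.2 CPM, Mei4 at 2.79 CPM and Tex11 at 7.05 CPM. Against the germ cell-like clusters alone 5 of the 26 were more than 2-fold higher. That share lies near the 19.8% of all autosomal genes higher in that comparison.

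Later germ cell genes were low. None of 10 genes of late spermatocytes was higher and 6 were lower, and their median level in cluster 6 was 0.0819 of that in the germ cell-like cluster where each was highest. Of the 15 spermatid genes 14 were lower, with 372 CPM in cluster 6, 333 CPM in cluster 2 and 10666 CPM in cluster 14. Set against cluster 2, the spermatid genes had a median ratio of 1.17, from 0.907 to 1.54. The late spermatocyte genes had one of 2.70, from 1.06 to 5.24, and the meiotic prophase genes one of 5.75, from 1.33 to 13. The spermatocyte list was not among the lists added later, and it shares genes with the prophase and the late list. Of its 12 genes 3 were higher and 1 was lower, and the median log2 ratio was 0.62, beside -0.27 over all genes. They summed to 1910 CPM in cluster 6 and 4635 CPM in cluster 13. Of the 10 genes of spermatogonia 5 were higher, where over all genes 7.32% were higher and 25.1% lower. Among the 5 was Kit, the receptor that Leydig cells and mast cells also carry, at 108 CPM and a ratio of 4.31. Uchl1 had a ratio of 4.93 and Lin28a one of 3.87. Whether nuclei of germ cells in early meiosis lie in cluster 6, or nuclei that were read together, was not tested. DoubletFinder was run in the study, and its place before or after the deposited tables is not stated.

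The X chromosome gave more of the UMIs in cluster 6 than in any other cluster. Its share of the UMIs of X and autosomes was 3.08% (3.07% to 3.09%) in cluster 6, 2.25% to 2.93% in the 9 clusters that are not germ cell-like and 0.665% to 1.66% in the 4 that are. Of 648 X-linked genes measured 152 (23.5%) were more than 2-fold higher, and the autosomes ranged from 5.30% to 8.27%. Set against the clusters that are not germ cell-like, 25.3% of X-linked and 14.6% of autosomal genes were higher, and the median log2 ratios were -0.00 and 0.03. Set against the germ cell-like clusters alone these medians were 1.22 and -0.02. The first place of cluster 6 did not hold without its 20 most abundant genes, among them Mageb18 with 15710 counts. Without the 20 most abundant genes the X share was 2.89% in cluster 6 and 3.01% in cluster 8, and without Xist and the higher genes it was 1.86% in cluster 6 and 1.85% to 2.59% in the other clusters that are not germ cell-like. The MAGE-B and Rhox lists were added after values had been seen. Of the MAGE-B genes 3 had at least 50 counts, of which Mageb16 and Mageb18 were higher and the autosomal Mageb3 was lower. Of the Rhox genes, an X-linked cluster of homeobox genes of the reproductive tract, Rhox8 alone had 50 counts, at a ratio of 6.20 (4.83 to 7.97). Both families hold close copies, so their counts are uncertain.

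**Figure D5:**
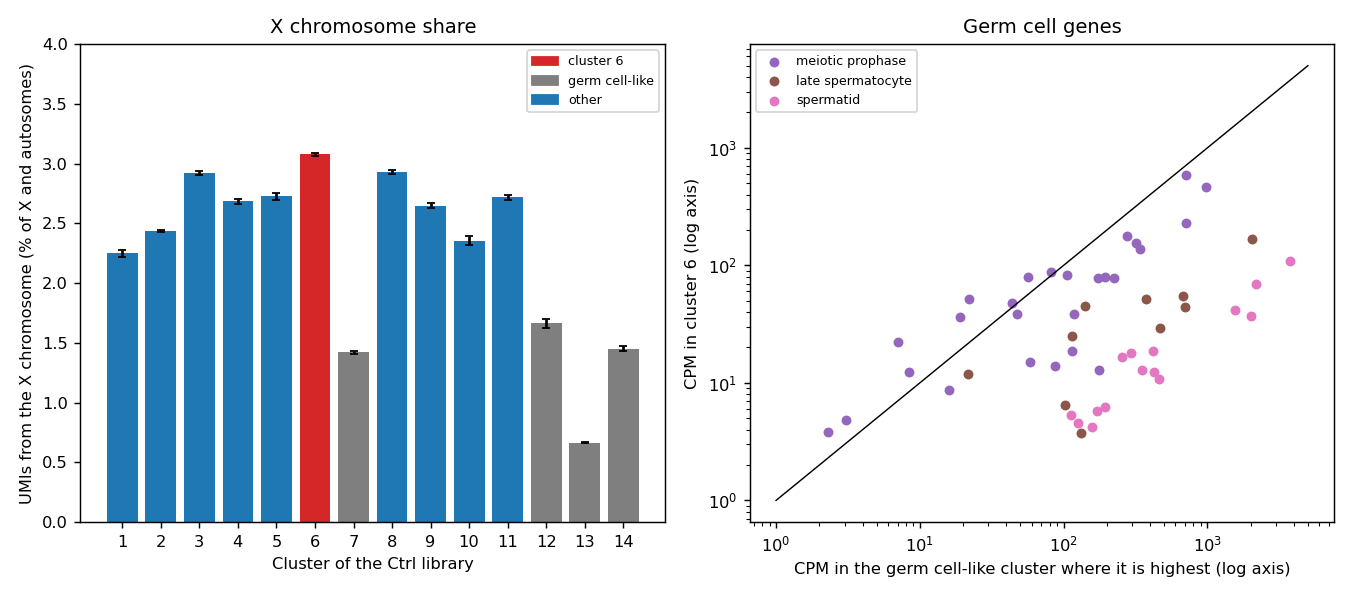
Left, share of UMIs from the X chromosome (% of those from X and autosomes, bars from 0) in the 14 Ctrl clusters, with 95% binomial intervals that cover counting error. Right, level in cluster 6 against the level in the germ cell-like cluster where each gene is highest (both log axes, CPM), 1 point for each gene of 3 germ cell lists. Cluster 6 has the highest bar at 3.08%. Of 26 meiotic prophase genes 9 lie above the line of equal level, against no gene of the other lists. The share of all genes above the line was not computed.

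These genes were also read in the Mid_Ob and Ob libraries, which the choice of cluster 6 did not use, although Ctrl itself was used. With 1 library per stage no difference between stages was tested, and in whole libraries fewer nuclei of a type and less RNA per nucleus cannot be told apart. Of the 25 leading genes 21 were more than 2-fold higher in Ctrl than in Mid_Ob, where 28.1% of all genes measured were, and 25 were higher in Ctrl than in Ob, where 35.5% of all genes measured were. These 25 genes were chosen as high in a Ctrl cluster, so nothing is read from the counts. Mro had 41.8 CPM in Ctrl, 0.555 CPM in Mid_Ob and 0.143 CPM in Ob, and Dmrt1 had 30.7, 0.243 and 0.269 CPM. Fshr had 13.4 CPM in Ctrl, 1.49 CPM in Mid_Ob and 0.574 CPM in Ob. Lhcgr had 20.4, 0.277 and 0.0717 CPM, and Cyp17a1 had 13.5, 1.08 and 0.0358 CPM. Hsd3b1 had 16.5 CPM in Ctrl and 0.191 CPM in Mid_Ob, and it had no count in Ob.

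Some of the leading genes were also seen in clusters outside Ctrl. Nxf3 had 36.6 CPM in Ctrl, 56.4 CPM in Mid_Ob and 0.296 CPM in Ob. In Mid_Ob cluster 3 held 2121 of its 3252 counts, at 218 CPM beside 203 CPM in cluster 6 of Ctrl. The same cluster was highest in Mid_Ob for Slc9a2, a sodium-proton exchanger, at 81.0 CPM beside 83.5 CPM in cluster 6 of Ctrl, and for Inha at 55.9 CPM beside 33.8 CPM. It was also highest there for Sema5b at 55.2 CPM and Tbx22 at 17.2 CPM, which stood at 536 and 29.7 CPM in cluster 6 of Ctrl. The epididymal list stood at 14868 CPM there, second of 11 clusters, and Mro was at or below 1.91 CPM in each Mid_Ob cluster. Mcf2 reached 178 CPM in cluster 11 of Mid_Ob, where the rete testis list was second highest, and Gpm6b reached 408 CPM in cluster 9 of Mid_Ob, where the endothelial list was highest, and 511 CPM in cluster 8 of Ob. Of the 5 proposed markers Mro and St8sia2 thus stayed at or below 37.7 CPM in each cluster of the other libraries, and Nxf3, Mcf2 and Gpm6b did not.

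Over the lists, Sertoli genes summed to 4352 CPM in Ctrl, 3419 CPM in Mid_Ob and 2957 CPM in Ob. Of 61 measured 27 were more than 2-fold higher in Ctrl than in Mid_Ob, against 28.1% of all genes, and 7 were lower. Of 59 measured 41 were higher than in Ob, against 35.5% of all genes, and 3 were lower. Leydig genes summed to 812, 495 and 395 CPM, with 13 of 16 higher in Ctrl than in Mid_Ob and 12 of 16 higher than in Ob. The share of cluster 6 in the sums cannot be read from the libraries, since genes such as Etv5 and Aldh1a1 have other sources. Etv5, an ETS factor, stood at 1073 CPM in cluster 2 of Mid_Ob, where the epididymal list was highest, against 132 CPM in cluster 6 of Ctrl. In the cluster of each library where the adipocyte list was highest, Lhcgr had 26.5 CPM in Ctrl, 0.185 CPM in Mid_Ob and 0.132 CPM in Ob, and Cyp11a1 had 46.8, 0.333 and 0 CPM. The adipocyte-list clusters of Mid_Ob and Ob thus held both genes below 1 CPM.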

How the data were processed

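Nuclei of epididymal fat were sequenced on the 10x Genomics platform, 1 library per stage. The authors ran Cell Ranger with STAR, with no version, build or annotation given in the sources used here. The authors deposited, for each cluster, a signal (mean count, UMIs over the summed size factor of its nuclei), a log2 fold change and an adjusted p-value. The deposited log2 and p-value columns hold the authors' own contrasts over nuclei and were not used. Per-nucleus barcodes and free RNA were not analysed here.

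Whole counts were recovered as multiples of the smallest step of each cluster, and 100% of values were whole within 0.001 counts. Of 28930 gene identifiers 28873 (99.8%) matched GENCODE M21 (GRCm38), used for chromosomes and lengths. CPM ratios have conditional binomial, shares exact binomial and levels Poisson 95% intervals, which cover counting error only. Depth was 53980929 to 111595518 UMIs per library. Genes with at least 50 Ctrl counts (between libraries, 50 in both summed) were called at 2-fold with no test, and 3 counts stood in for 0. The recovery was tested on simulated data. Calculations used Python 3.11.15, numpy 2.4.6, pandas 2.3.3, scipy 1.17.1 and matplotlib 3.10.9.

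The members, lists and cluster names were chosen with earlier results of these data known. The rule for naming genes covered the 5 proposed markers, members of the Sertoli and Leydig lists and the 10 most abundant genes. It also covered the 25 highest ratios with at least 200 counts in cluster 6 and a proper symbol. The 10 lowest ratios with at least 5000 counts and the 3 most abundant members of each other list were covered too. Not every gene covered is named in the text, and none is named as one of the lowest ratios. The list counts include 1 Sertoli list member that is not reported here by itself or drawn. Members of added lists, Lama1 and others beyond this rule were taken once their values were known.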

Additional observations from a re-analysis of the deposited data

How the results depend on the processing

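Of 51 values recomputed under an alternative, 38 stayed within 1.5 times of the value given, 13 moved by more and 0 changed direction. The number of genes higher in cluster 6, 1507, became 3069 without the germ cell-like clusters, 3287 against the median of the other clusters, 2781 at 1.5-fold and 502 at 4-fold. At 4-fold 26 Sertoli and 7 Leydig genes were higher. The 13 higher meiotic prophase genes became 20 without the germ cell-like clusters and 5 against those alone. With each cluster weighted equally, the share of list counts in cluster 6 was 16.9% for Sertoli and 17.4% for Leydig genes. The X share was 1.86% without Xist and the higher genes, a fall that follows from the choice of the genes removed. Cluster 6 held 37.0% of the UMIs of the testis clusters. The Leydig median log2 ratio was 2.57 without cluster 2. The references without cluster 1 or 2, the meiotic prophase settings and the lists named as added were chosen after seeing the data. No paired analysis was possible because each stage has 1 library.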
